A study of Mus musculus with 188 samples.

Results

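The data described here are the untreated brain slices of the first culture round, compared after 48 h and after 24 h of the experimental period. The libraries were taken by their labels: every control library with no agent added whose name carries the round mark E1, at these times. The comparison itself was chosen with earlier results of these data known. This gave 14 of the 188 libraries of the series, 7 at 24 h and 7 at 48 h. Each is poly(A)-selected RNA sequencing of organotypic slices, living brain tissue kept on a membrane insert, cut 150 µm thick in the coronal plane from perfused adult C57BL/6J mice of both sexes. Slices rested in plating medium with 20% horse serum, went into serum-free medium on day 4 and entered the experiment on day 7, so that every library, the 24 h ones included, came from tissue already a week in culture, and no agent was added to any of them. The question is what 1 further day in the dish does to RNA levels in slices given no treatment.

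Several features of the groups limit them as a model. A coronal slice can come from any level of the brain, and the libraries carry a code of a letter, F or M, and a digit that the labels do not explain. There were 10 codes and only 2 of them, M4 and M5, had a library at both times, so that culture time and code cannot be told apart for the rest. The 7 libraries of each time carried 6 codes: F3 had 2 libraries at 24 h and F1 had 2 at 48 h, 1 in each batch. Nothing says that the 7 libraries of a time came from separate animals, and p-values measure the spread between these libraries. At each time 6 libraries carried the batch label 2 and 1 the batch label 3. Total counts ran from 29649269 to 49764270 at 24 h and from 33510159 to 47468700 at 48 h, the lowest of each time being the batch 3 library, and mitochondrial transcripts held 2.38 to 2.75% and 2.47 to 2.80% of the counts. The defining markers of astrocytes, oligodendrocytes, microglia, endothelium and mural cells were present in the tissue. The 6 defining neuronal markers summed to 43.8 to 134 CPM (counts scaled to a common library total, TMM-adjusted) at 24 h. At 48 h they summed to 47.5 to 157 CPM. The 5 endothelial markers summed to 44.6 to 114 CPM at 24 h and 30.2 to 72.4 CPM at 48 h. A wider list of 18 neuronal markers summed to 758 to 1062 CPM at 24 h and 687 to 1144 CPM at 48 h. The red cell gene Hba-a1 was at 0 in all 14 libraries. In bulk tissue, fewer cells of a type and less RNA per cell cannot be told apart.

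Cutting a brain severs axons and vessels and starts a wound response in which astrocytes enlarge, microglia and precursor cells can divide, and injured cells release cytokines and ligands of the epidermal growth factor (EGF) receptor. In a dividing cell, genes for DNA replication are switched on before S phase by E2F factors, and genes for mitosis later by complexes that read a short element called the cell cycle homology region. Myelin in the adult brain is held by oligodendrocytes that have stopped dividing.

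Only 3 of 15612 genes tested passed an adjusted p of 0.05, in an edgeR quasi-likelihood fit with batch as a term and p-values adjusted by Benjamini-Hochberg. The 1 gene that rose was 0.00641% of those tested and the 2 that fell were 0.0128%. Most differences were small: the median log2 fold change over all genes was 0.0028, and 96.7% of genes were under 0.5 in size. At an unadjusted p under 0.05 there were 1361 genes higher at 48 h (8.72%) and 1586 lower (10.2%), and these percentages are the background for the gene groups below. At an adjusted p under 0.10 there were 318 genes, 144 higher and 174 lower. The 24 h and 48 h libraries did not overlap in 21 genes higher at 48 h (0.135%) and 51 genes lower (0.327%). The count of called genes depended on single libraries and on the tool. Without 48 h replicate 4 it was 720, without 48 h replicate 5 it was 509, without 24 h replicate 5 it was 22, and DESeq2 called 924, 479 of them higher.

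Anln (ENSMUSG00000036777, chromosome 9) encodes anillin, the actin-binding scaffold of the contractile ring that divides a cell, which in the brain also supports septin filaments in myelin. Its level was 97.6, 104 and 111 CPM (lowest, median and highest library) at 24 h and 74.3, 77.7 and 81.1 CPM at 48 h. Every 48 h library lay below every 24 h library. The fall was 25.8%, a log2 fold change of −0.43 ± 0.036 (SE, n = 7 and 7, adjusted p = 0.000192).

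Ereg (ENSMUSG00000029377, chromosome 5) encodes epiregulin, a ligand of the EGF receptor made by injured and inflamed tissue. It was at 4.51, 5.06 and 7.05 CPM at 24 h and at 2.44, 2.74 and 2.99 CPM at 48 h, again with no overlap. The log2 fold change was −0.98 ± 0.11 (SE, adjusted p = 0.00398), a fall of 49.2%.

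Lrrc8a (ENSMUSG00000007476, chromosome 2) encodes the obligatory subunit of the volume-regulated anion channel, through which swollen cells release chloride and organic osmolytes. It was at 85.3, 90.9 and 99.4 CPM at 24 h and at 104.6, 110 and 121.5 CPM at 48 h. All 48 h libraries stood above all 24 h libraries, and the log2 fold change was 0.29 ± 0.042 (SE, adjusted p = 0.0339), a rise of 22.7%. The gene shares its locus with Gm28035, a gene model on the same strand with a median of 112 CPM and a log2 fold change of 0.28 (adjusted p = 0.0634), and reads of the shared part cannot be assigned to either. The call for Lrrc8a was not firm: with 1 library left out in turn it was kept in 4 of 14 fits and lost in 10, at adjusted p from 0.0117 to 0.133, with the log2 fold change between 0.27 and 0.31. It was also lost with no filter on low counts and after removing trends with GC content and length. Anln and Ereg were called in all 14 of these fits.

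In GENCODE M21 the span of Anln also overlaps that of the gene model Gm48646, and the span of Ereg that of Gm19610. Neither model was among the genes counted, and whether exons overlap was not examined. The codes present at both times gave the same directions. For Anln the log2 ratio of 48 h over 24 h was −0.42 in code M4, −0.42 in code M5 and −0.40 between the batch 3 libraries. For Ereg the ratios were −0.59, −1.07 and −0.91 in the same order, and for Lrrc8a they were 0.17, 0.20 and 0.21.

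**Figure D1:**
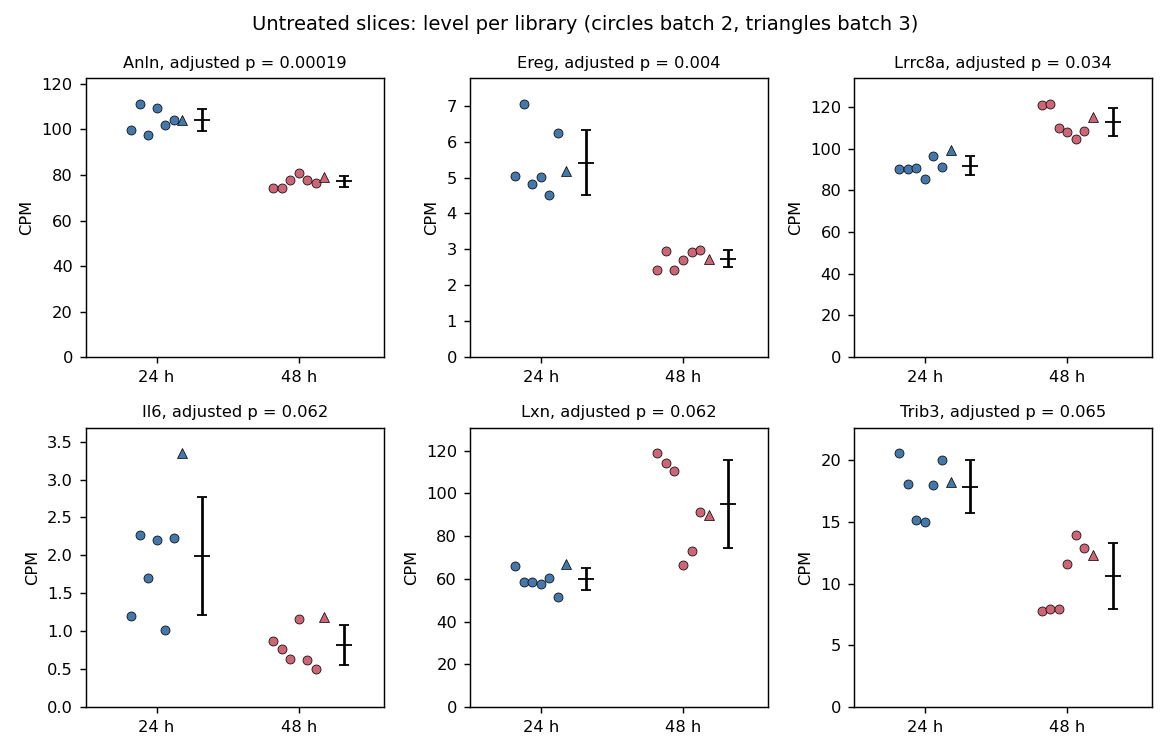
Level in CPM (vertical axis, starting at 0) of single genes in each of the 14 untreated libraries at 24 h and 48 h, with circles for batch 2, triangles for batch 3 and bars for the mean and SD of each time. The 48 h points of Anln lie between 74.3 and 81.1 CPM, all under the lowest 24 h point of 97.6 CPM.

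The promoters of Anln, Lrrc8a and 3 further genes are shown next. The last 3 were chosen after the search because they hold the words, as examples for the counts given below; Bub1 and Nusap1, mitosis genes with smaller p-values than Ube2c, have no TTTGAA in the window. Each is the RefSeq window on GRCm38.p6 from 250 bases before the transcription start to 50 bases after it, written 5′ to 3′ on the strand of the gene, and capitals mark the words searched. For Anln (chr9:22389157-22389456, minus strand) the capitals are TTTGAA, the core of the cell cycle homology region, read once on each strand, and CACGTG, the E-box. For Lrrc8a (chr2:30237519-30237818, plus strand) they are CACGTG and TGACGTCA, the cyclic AMP response element. For Zfp367 (chr13:64153150-64153449, minus strand) and Cdc6 (chr11:98907901-98908200, plus strand), described below, they are E2F-type words (TTTCGCGC, TTTGGCGC or TTTCCCGC), here all on the opposite strand. For Ube2c (chr2:164769679-164769978, plus strand), a mitosis gene, they are TTTGAA and CCAAT, the word read by nuclear factor Y, of which 1 pair overlaps. Ereg had no entry among these windows. Zfp367 has a second window (chr13:64152324-64152623), not shown, which holds 1 TTTGGCGC and neither of the other E2F-type words. Over 32851 promoters of this length, CACGTG was in 7.15% and TGACGTCA in 1.79%.
Anln: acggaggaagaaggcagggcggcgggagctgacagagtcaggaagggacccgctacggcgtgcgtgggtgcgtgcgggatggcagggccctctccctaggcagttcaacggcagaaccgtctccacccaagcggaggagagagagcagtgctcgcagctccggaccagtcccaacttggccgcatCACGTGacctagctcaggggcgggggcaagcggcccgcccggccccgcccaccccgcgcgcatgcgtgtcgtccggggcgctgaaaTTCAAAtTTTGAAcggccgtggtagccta
Lrrc8a: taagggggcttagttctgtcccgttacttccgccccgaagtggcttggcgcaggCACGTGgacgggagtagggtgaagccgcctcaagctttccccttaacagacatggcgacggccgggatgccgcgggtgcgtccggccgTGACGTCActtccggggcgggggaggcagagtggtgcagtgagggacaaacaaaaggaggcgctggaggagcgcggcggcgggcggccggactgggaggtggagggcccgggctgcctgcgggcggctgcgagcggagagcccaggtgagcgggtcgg
Zfp367: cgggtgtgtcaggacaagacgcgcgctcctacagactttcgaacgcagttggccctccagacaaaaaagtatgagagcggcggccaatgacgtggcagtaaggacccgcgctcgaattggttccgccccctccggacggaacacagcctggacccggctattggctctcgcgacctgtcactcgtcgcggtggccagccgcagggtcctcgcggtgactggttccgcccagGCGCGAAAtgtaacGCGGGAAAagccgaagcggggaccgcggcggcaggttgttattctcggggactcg
Cdc6: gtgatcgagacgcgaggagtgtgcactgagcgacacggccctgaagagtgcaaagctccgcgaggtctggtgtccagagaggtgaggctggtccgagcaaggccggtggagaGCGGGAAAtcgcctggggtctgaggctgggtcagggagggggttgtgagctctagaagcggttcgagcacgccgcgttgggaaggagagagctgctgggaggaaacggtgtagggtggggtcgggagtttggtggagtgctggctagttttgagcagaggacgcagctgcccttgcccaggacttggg
Ube2c: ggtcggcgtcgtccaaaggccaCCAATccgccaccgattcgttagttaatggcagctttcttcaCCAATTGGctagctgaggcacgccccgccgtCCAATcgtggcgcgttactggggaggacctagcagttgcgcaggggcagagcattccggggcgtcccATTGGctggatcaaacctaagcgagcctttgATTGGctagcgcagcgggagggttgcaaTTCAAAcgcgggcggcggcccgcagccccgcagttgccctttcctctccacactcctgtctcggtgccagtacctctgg

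Next in order were 11 genes higher and 10 genes lower at 48 h that did not pass, all with an adjusted p of 0.0621 from the same edgeR test. They were the genes with the smallest p in each direction, so that their separation of the times describes the choice. The higher ones had log2 differences between 0.24 and 0.67. Lxn, which encodes the carboxypeptidase inhibitor latexin, had 0.67 ± 0.12 (SE), with 51.3, 58.6 and 67.2 CPM at 24 h and 66.3, 91.4 and 118.7 CPM at 48 h. Slc22a4, an organic cation transporter, had 0.61 ± 0.10.

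Several of the higher genes are known from neurons, although of 18 neuronal markers 0 were higher at an unadjusted p under 0.05. Adam11, a catalytically inactive surface protein of neurons, had 0.56 ± 0.11. Fndc5, the precursor of irisin, had 0.55 ± 0.10. Snph, which anchors axonal mitochondria, had 0.36, Iglon5, a cell adhesion protein, 0.28, and Mapk10, the neuronal Jun kinase, 0.28. Mfsd13a, Creld1 and Tcp11l2 had 0.34, 0.25 and 0.24.

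Among the lower genes, Zfp367, a zinc finger factor, was at 25.2, 30.4 and 34.4 CPM at 24 h and 23.7, 24.1 and 25.2 CPM at 48 h, a log2 difference of −0.32 ± 0.050. The times did not overlap, by a narrow margin. Mcm8, a helicase of replication and repair, had −0.36, Zgrf1, a DNA helicase, −0.32, and Fignl1, which acts in recombination repair, −0.33. Spc25, of the kinetochore, had −0.34, and Sass6, which starts the building of a centriole, −0.29. The others were Rtkn2 at −0.39, Mettl16, an RNA methyltransferase, at −0.22, Hax1 of mitochondria at −0.19, and Il6. Il6, the acute-phase cytokine, had the widest difference of these genes, −1.26 ± 0.23, at 1.01, 2.20 and 3.34 CPM at 24 h and 0.498, 0.769 and 1.18 CPM at 48 h.

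Genes of cell division leaned lower as a group. All 20 S phase genes tested had negative log2 differences, with a median of −0.22, and 16 of them had an unadjusted p under 0.05, against 10.2% of all genes. None of the 20 passed the adjusted threshold. Ccne2, cyclin E2, had −0.37 ± 0.070 (adjusted p = 0.0621), Cdc6, which loads the replicative helicase, −0.39 ± 0.087 (0.0792), and Pcna, the sliding clamp, −0.20 ± 0.056 (0.116). The mean log2 CPM of the list was 5.07, 5.32 and 5.44 at 24 h and 4.96, 5.05 and 5.20 at 48 h, so the times overlapped.

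The 20 mitosis genes were all negative too, with a median of −0.26 and 13 under an unadjusted p of 0.05. Bub1, a checkpoint kinase, had −0.37 ± 0.081 (adjusted p = 0.0791), and Nusap1 of the spindle, Ube2c of the anaphase-promoting pathway and Cenpf of the centromere had −0.32, −0.32 and −0.42. No member passed the adjusted threshold. The list's mean log2 CPM was 5.68, 5.94 and 6.19 at 24 h and 5.40, 5.73 and 5.93 at 48 h. The direction was kept in code M4 but not in code M5. The 48 h minus 24 h difference of the S phase list was −0.09 in M4 and 0.05 in M5. That of the mitosis list was −0.05 and 0.13. Between the batch 3 libraries, which carry different codes (F3 at 24 h, F1 at 48 h), the differences were −0.36 and −0.43.

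These lists differed in the words of their promoters. TTTGAA on either strand was in 11 of the 16 mitosis promoters with a window (68.8%) and in 2 of 17 S phase promoters (11.8%), against 17.9% of 32851 promoters of the same length. An E2F-type word was in 7 of 17 S phase promoters (41.2%) and in 1 of 16 mitosis promoters (6.25%), against 1.84% of all. CCAAT was in 14 of 16 mitosis promoters (87.5%) and 12 of 17 S phase promoters (70.6%), against 37.4%. These are matches of letters and describe the lists, which were drawn up by function.

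**Figure D2:**
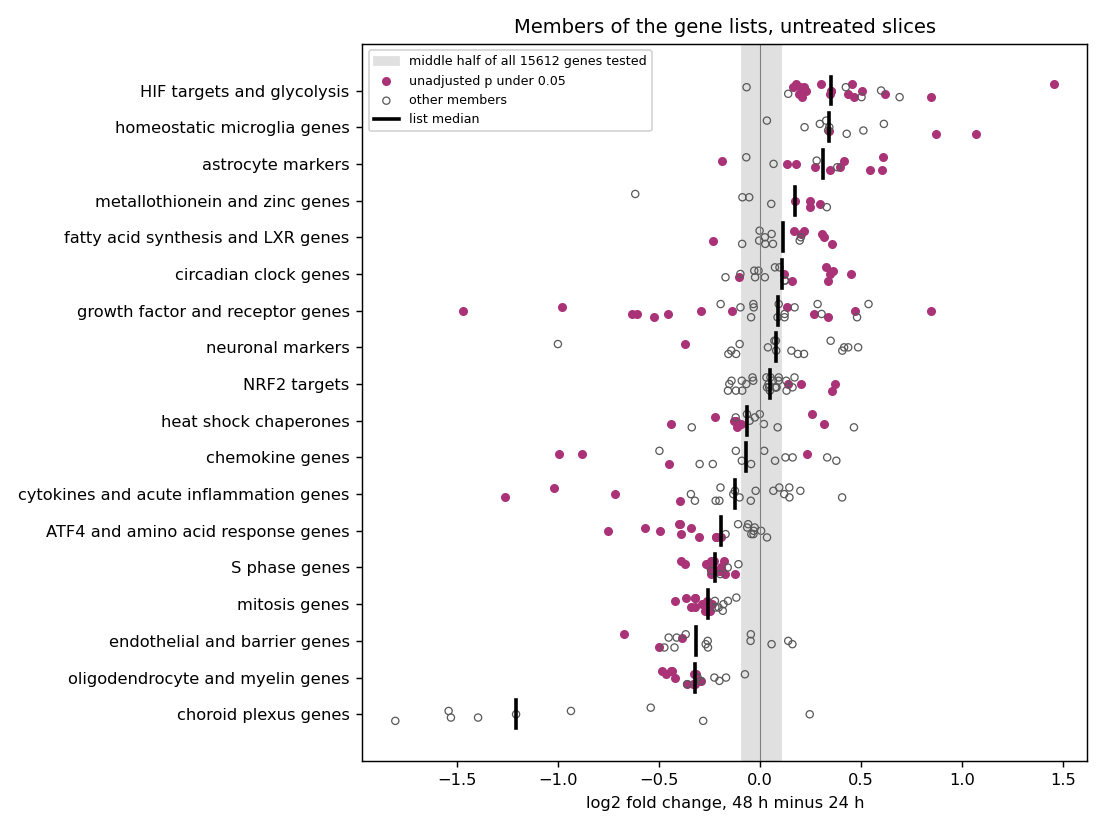
Log2 fold change of 48 h over 24 h (horizontal axis) for the members of 18 gene lists in untreated slices, with a point for each gene, filled at an unadjusted p under 0.05, a bar at each list's median and a grey band for the central range of all genes tested. All 20 S phase, all 20 mitosis and all 19 myelin genes lie left of 0, and 23 of 24 genes of glycolysis and hypoxia lie right of it.

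Other ligands of the EGF receptor were among the growth factor genes with the smallest p, by which they were chosen. Besides Ereg, Areg, which encodes amphiregulin, had a log2 difference of −1.47 ± 0.31 (adjusted p = 0.0707) from a mean of 1.72 CPM to 0.605 CPM. Btc, betacellulin, had −0.61 ± 0.13 (0.0734). Bdnf, the neurotrophin, had 0.47 ± 0.11 in the other direction (0.0859). The 27 genes of growth factors and receptors tested had a median of 0.09, with 5 higher and 8 lower at an unadjusted p under 0.05, so the list as a whole did not lean to a side.

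Among 21 genes of cytokines and acute inflammation, which include adhesion molecules and inhibitors of NF-κB, the median was −0.12, and 4 were lower and 0 higher at an unadjusted p under 0.05. These were Il6, Csf3, which encodes the granulocyte colony-stimulating factor, at −1.02 ± 0.28, Il33, an alarmin stored in nuclei of glia, at −0.40 ± 0.12, and Il11 at −0.72 ± 0.28. Among 16 chemokine genes the median was −0.07, with 3 lower and 1 higher. Cxcl1, which attracts neutrophils, had −0.88 ± 0.20 (adjusted p = 0.0791), from a mean of 20.4 CPM to 11.02 CPM. Ccl2, which attracts monocytes, had −0.45 ± 0.13, Ccl5 −0.995 ± 0.39 and Cxcl14 0.23 ± 0.094. The median of the chemokine list changed sign under 2 alternative fits with the choroid plexus level as a term, up to 0.10.

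Of 21 genes that the factor ATF4 switches on when amino acids run short or protein folding fails, 19 were negative, with a median of −0.19, and 11 were lower and 0 higher at an unadjusted p under 0.05. Trib3, a pseudokinase, had −0.75 ± 0.15 (adjusted p = 0.0650), Mthfd2, of mitochondrial folate metabolism, −0.40 ± 0.091 (0.0812), Atf5 −0.30 ± 0.073 and Asns, asparagine synthetase, −0.40 ± 0.10. The list's mean log2 CPM was 5.82, 5.86 and 5.94 at 24 h and 5.50, 5.60 and 5.93 at 48 h. A single library, 48 h replicate 5, stood at the level of the 24 h slices, and 6 of 7 lay below all of them. Replicate 5 is the code M5 library: the list's difference was −0.17 in code M4, 0.06 in code M5 and −0.28 in batch 3, and in M5 Trib3 had −0.52 and Asns 0.26.

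No cell type gene passed the adjusted threshold. All 19 oligodendrocyte and myelin genes were negative, with a median of −0.32, and 12 were under an unadjusted p of 0.05. Ermn, a cytoskeletal protein of myelin, had −0.47 ± 0.14, Gjb1, a gap junction protein, −0.49 ± 0.15, Mobp −0.44 ± 0.14 and Mal −0.33 ± 0.11, with adjusted p between 0.117 and 0.155. The difference was also negative within code M4 (−0.26), code M5 (−0.20) and batch 3 (−0.11). The times overlapped, at 9.02 to 9.44 and 8.36 to 9.24 in mean log2 CPM.

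Of 14 astrocyte markers 12 were positive, with a median of 0.31, 9 higher and 1 lower at an unadjusted p under 0.05. Slc4a4, a bicarbonate cotransporter, had 0.42 ± 0.10 (adjusted p = 0.0848), Aqp4, the water channel of endfeet, 0.40 ± 0.10, Gfap, their intermediate filament, 0.54 ± 0.16, and Sox9, a glial transcription factor, 0.61 ± 0.19. The list's difference was 0.20 in code M4, −0.12 in code M5 and 0.20 between the batch 3 libraries.

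All 12 homeostatic microglia genes were positive, with a median of 0.34 and 3 under an unadjusted p of 0.05, but libraries spread widely, from 3.17 to 4.89 in mean log2 CPM at 24 h and from 3.67 to 5.51 at 48 h. P2ry12, a receptor for nucleotides, had 0.34 ± 0.15, Gpr34 0.87 ± 0.39 and Cx3cr1, the fractalkine receptor, 1.07 ± 0.49, with adjusted p between 0.228 and 0.255. In codes M4 and M5 the list's difference was −0.47 and −0.30. Of 16 endothelial genes 13 were negative, with a median of −0.32 and 3 lower at an unadjusted p under 0.05; the list's difference was −0.95 in M4, −0.85 in M5 and −9.8e-05 in batch 3. Without 24 h replicate 5 the median was −0.17 and Pecam1 was at −0.31. With all libraries Tek, a receptor of vessels, had −0.67 ± 0.20 and Pecam1 −0.50 ± 0.20.

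Choroid plexus content varied most between slices. The 10 genes listed for this epithelium summed to 12.96 to 1039 CPM at 24 h and 11.2 to 454 CPM at 48 h. Of these, 9 were tested and 0 reached an unadjusted p under 0.05. The median log2 difference of those tested was −1.21, and it was −0.51 without 24 h replicate 5 and −2.35 without 48 h replicate 4. F5 had −0.94 ± 0.52, Folr1 −1.40 ± 0.85 and Clic6 −1.54 ± 0.97, which ran from −3.01 to −0.84 without the same libraries. In code M4 and code M5 the log2 difference of the list was −4.47 and −3.73. The 4 Y-linked genes matched the letter of the code in 14 of 14 libraries, and with more M libraries at 48 h they had Eif2s3y 0.48, Ddx3y 0.42, Uty 0.41 and Kdm5d 0.39. The part of slice content and of sex in the other differences was not tested by the comparison itself; with the letter as a term 864 genes were called, with the choroid plexus level 688 and with both 1830, the last 2 fits chosen after the data were seen.

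**Figure D3:**
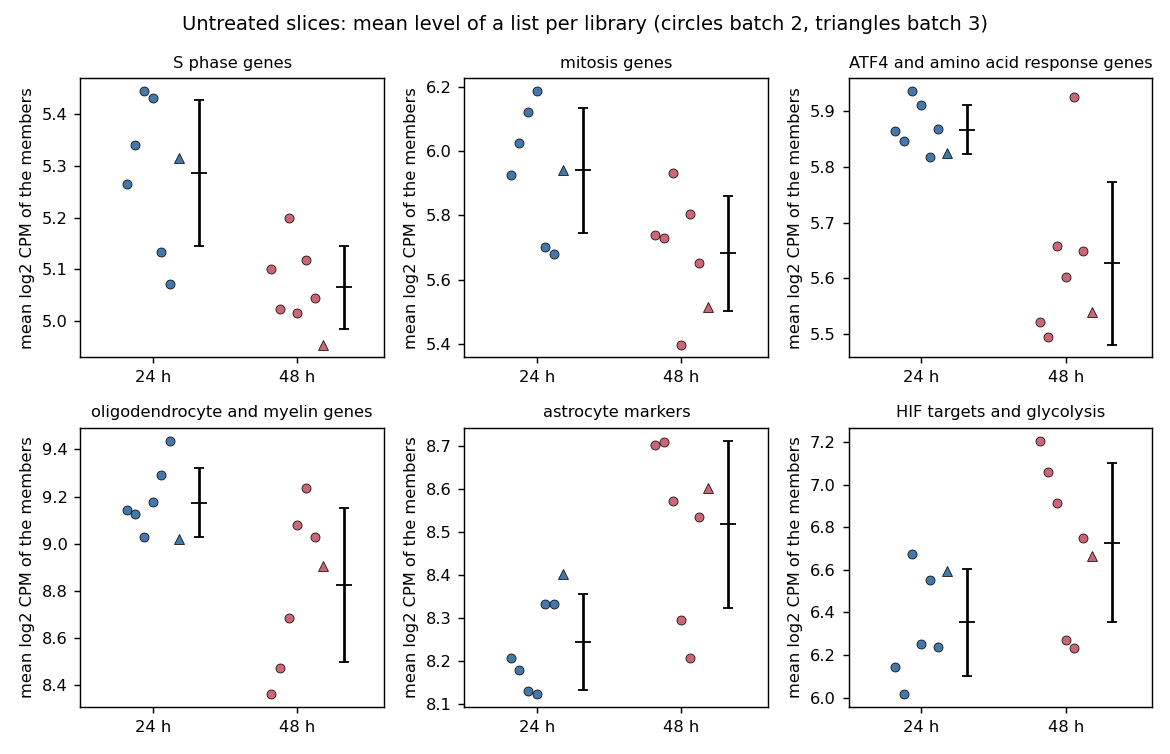
Mean log2 CPM (vertical axis, not starting at 0) of 6 gene lists in each untreated library at 24 h and 48 h, with circles for batch 2, triangles for batch 3 and bars for the mean and SD. In the ATF4 panel 6 of the 7 points at 48 h lie below every 24 h point, and in the other panels the times overlap.

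Genes of glycolysis and of the response to low oxygen leaned higher. Of 24 tested 23 were positive, with a median of 0.35, and 18 were higher and 0 lower at an unadjusted p under 0.05, against 8.72% of all genes. Pfkfb3, which sets the pace of glycolysis, had 0.35 ± 0.087 (adjusted p = 0.0905), Slc2a3, a glucose transporter, 0.50 ± 0.15, Hk2, hexokinase, 0.45 ± 0.14, and Pdk1, which holds back pyruvate from mitochondria, 0.62 ± 0.19. The levels overlapped, from 6.01 to 6.68 in mean log2 CPM at 24 h and from 6.23 to 7.21 at 48 h. The list's difference was 0.20 in code M4, 0.00 in code M5 and 0.07 between the batch 3 libraries.

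Differences in other groups were smaller. Of 18 circadian clock genes 7 were higher and 1 lower at an unadjusted p under 0.05, with a median of 0.11. The repressor Nr1d1 had 0.36 ± 0.077 (adjusted p = 0.0734), its fellow output gene Dbp 0.34 ± 0.089, Cry2 0.12 and Clock −0.10. Of 9 metallothionein and zinc genes 4 were higher, led by Mt2 at 0.30 ± 0.065, Mt3 at 0.25 and Mt1 at 0.25, all of which encode metal-binding proteins. Of 16 genes of fatty acid synthesis and the liver X receptor 6 were higher and 1 lower. The desaturases Fads1 and Fads2 had 0.32 and 0.31, the receptor Nr1h2 0.17, and the elongase Elovl6 −0.23.

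Of 17 heat shock chaperones 6 were lower and 2 higher. Hsp90aa1 had −0.22 ± 0.047 and Hspa4 −0.12, whereas the small chaperone Hspb8 had 0.32 and its partner Bag3 0.26. Of 29 targets of the antioxidant factor NRF2 4 were higher and 0 lower, with a median of 0.05. Gstm1, a glutathione transferase, had 0.36 ± 0.076 (adjusted p = 0.0729), and the NRF2 genes read in the hemoglobin experiments, Nqo1 and Gclm, had 0.13 and 0.04. The heme transporter gene Slc48a1 had −0.07 and the iron exporter gene Slc40a1 0.13. The 18 neuronal markers had a median of 0.08, which was −0.11 without 48 h replicate 4. At an unadjusted p under 0.05, 0 of them were higher and 1 was lower, Tubb3 at −0.37 ± 0.17. The 34 ribosomal protein genes had a median of 0.01 with 0 under an unadjusted p of 0.05.

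The same extra day was also sampled in slices given 200 µM hemoglobin in the same round, with 8 libraries at 24 h and 7 at 48 h. No library is shared with the untreated comparison, but the codes are: all 6 codes at 24 h and 6 of 7 at 48 h also had an untreated library at that time. There 177 genes rose (1.11% of 15972) and 129 fell (0.808%). With the code as a fixed block 7 genes were called. Anln fell by 0.28 on the log2 scale (adjusted p = 3.11e-05), Ereg fell by 0.79 (adjusted p = 0.000306), and Lrrc8a rose by 0.24 (adjusted p = 0.00808). The difference between the time effects passed the adjusted threshold for 0 genes by edgeR, with 169 at an unadjusted p under 0.05, and for 0 genes by DESeq2. That fit has no term for the code, which the groups share. With the code as a fixed block, chosen after the data were seen, it passed for 0 genes too, with 162 at an unadjusted p under 0.05, and as a random block in limma for 0, with 216. Of 15972 genes, these counts are fewer than a p under 0.05 gives by chance with no difference at all. The p-values of this test therefore run high, and 0 calls do not show that the time effects are equal. Without the block, for Anln the effect with hemoglobin minus that without was 0.15 ± 0.045, for Ereg 0.19 ± 0.15 and for Lrrc8a −0.06 ± 0.066, all with an adjusted p of 0.9999.

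Of the 24 genes chosen by the naming rule all had the same sign with hemoglobin, and 17 passed there, 11 higher and 6 lower. Il6 fell by 1.15 on the log2 scale (adjusted p = 0.0108), Fndc5 rose by 0.63 (0.00132) and Mfsd13a rose by 0.37 (0.000623). Of the 318 genes under an adjusted p of 0.10 in untreated slices 315 had the same sign with hemoglobin and 112 passed there, where 12134 of all 15612 genes had the same sign. The list medians with hemoglobin were −0.24 for S phase, −0.26 for mitosis, −0.30 for myelin, 0.35 for astrocytes, 0.30 for glycolysis and hypoxia and −0.22 for ATF4 targets. In that comparison 4 S phase genes and 8 ATF4 genes fell, with log2 fold changes of −0.43 for Cdc6, −0.31 for Ccne2, −0.72 for Trib3 and −0.38 for Asns. Cxcl1 fell by 1.31 (0.000623), and Ccl2 fell by 0.82 (0.00223).

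**Figure D4:**
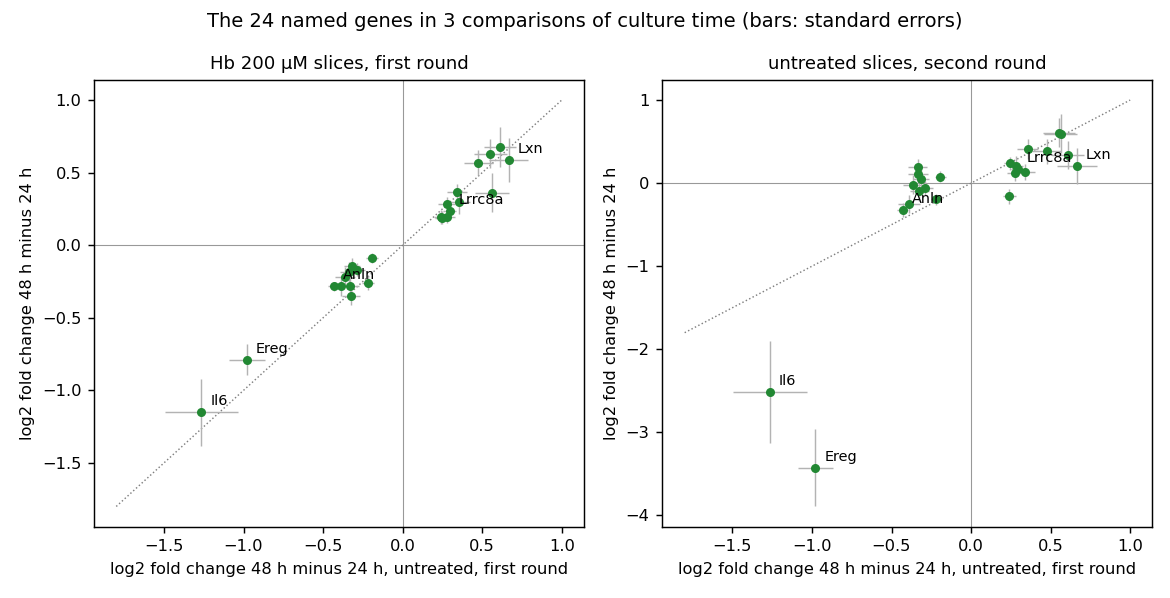
Log2 fold change of 48 h over 24 h for the 24 genes chosen by the naming rule, with untreated slices of the first round on the horizontal axis and, on the vertical axes, slices with 200 µM hemoglobin (left) and untreated slices of the second round (right); bars are standard errors and the dotted line marks equal values. All 24 genes lie on the same side of 0 in both comparisons on the left, and 19 of 24 do on the right.

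A second round of untreated slices, marked E2, had 3 libraries at 24 h and 2 at 48 h, fitted with the first round to share its spread. No gene rose (0% of 16549) and 1 fell (0.00604%), with 3190 at an unadjusted p under 0.05 and 587 called by DESeq2. The gene was Ereg, which fell by 3.43 on the log2 scale (adjusted p = 0.0190). The call was lost without either of the 48 h libraries of that round. Anln had −0.32 ± 0.082 (adjusted p = 0.0857) and Lrrc8a 0.17 ± 0.071 (adjusted p = 0.216). Of the 12 higher genes 11 had the same sign in the second round, all but Tcp11l2 at −0.16, and of the 12 lower genes 8 did. The share of all genes with the same sign in both rounds was not counted, so these counts have no background. Areg had −2.23, Btc −1.31, Csf3 −3.61 and Cxcl1 −1.79, and none of these passed.

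The cell division lists had the opposite sign in the second round. S phase genes had a median of 0.20, with 18 of 20 positive, and mitosis genes 0.17, with 16 of 20 positive. The median difference between rounds, second minus first, was 0.46 for S phase genes, where 15 of 20 had an unadjusted p under 0.05, and 0.37 for mitosis genes, where 9 did. The smallest adjusted p in either list was 0.221, and over all genes 0 passed by edgeR, with 1960 at an unadjusted p under 0.05 and 73 by DESeq2. Myelin genes kept their sign, with a median of −0.28 and 0 of 19 positive, as did ATF4 targets at −0.26. Other lists with small positive medians in the first round had negative ones in the second. These were circadian clock genes at −0.03 (6 of 18 positive), metallothionein and zinc genes at −0.07 (3 of 9) and NRF2 targets at −0.08 (8 of 29). Fatty acid and liver X receptor genes had −0.04 (7 of 16 positive) and growth factor genes −0.19 (5 of 27). Cell type lists differed widely in the same libraries. Homeostatic microglia genes had a median of 1.42 and neuronal markers 1.13 (16 of 18 positive), whereas endothelial genes had −0.88 (0 of 16 positive) and ependymal genes −0.77 (0 of 12 positive). Astrocyte markers had 0.04, and glycolysis and hypoxia genes 0.20. The part of slice content in the sign of the cell division lists was not tested.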

How the data were processed

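The authors sequenced TruSeq mRNA libraries and deposited raw read counts per gene, which the submitters' processing notes attribute to featureCounts and GRCm39; the versions and the strand setting of the counting are not given in the sources used here. Groups were taken from the labels. Counts of the 14 libraries were filtered with filterByExpr (at least 10 counts, 15 in total), scaled by TMM and fitted with edgeR 4.0.16 in R 4.3.3 by quasi-likelihood, with time and batch as terms. Standard errors are the log2 fold change over the square root of F, p-values were adjusted by Benjamini-Hochberg over all genes tested, and calls were made at 0.05. CPM use TMM-scaled library sizes, and log2 levels a prior count of 2. Hemoglobin and second-round libraries entered 4-group fits, in which the difference of the time effects was tested. The study's methods used DESeq2; DESeq2 1.42.0 and limma 3.58.1 served as alternatives, with other scalings, filters, blocks, terms and left-out libraries. Scripts were tested on simulated data.

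Named genes were the 12 with the largest change in each direction among those that passed with a mean of at least 1 CPM and a gene name, filled by smallest p, up to 4 members with the smallest p of a list, and the NRF2, heme and iron genes given. A few genes that the rule takes are counted but not reported by name here. The comparison, the gene lists and the alternatives were chosen with earlier results of these data known, so no list is independent evidence. Gene overlaps, lengths and GC content came from GENCODE M21 (GRCm38), a build other than that of the counts. No 2 libraries of a time were near copies. Library titles share replicate numbers between times, but these do not mark a shared animal or day in the labels, and they were not treated as pairs. The libraries of the series whose group the labels do not give were not used.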

Additional observations from a re-analysis of the deposited data

Results flagged for a closer look

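In 16 of 226 sets of 7 libraries, a library stood apart from the rest by Dixon's criterion, where chance gives about 1 in 20, and no cause was tested. At 24 h, replicate 7 had 27.6 CPM of Slc22a4, 96.0 CPM of Hspb8 and a total count of 29649269, and replicate 4 had 5.87 CPM of P2ry12, the lowest of its time. Replicate 5 at 24 h had the highest Ccl5, 1.03 CPM, and the highest Tek, 4.22 CPM, and replicate 6 the highest mean log2 CPM of the NRF2 targets, 7.03. At 48 h, replicate 7 had the lowest Cdc6, 6.81 CPM, and the lowest total count, 33510159. Replicate 4 at 48 h had the highest Pcna, 158 CPM, the highest Slc40a1, 35.9 CPM, and the lowest mean log2 CPM of the heat shock chaperones, 6.34. Replicate 5 at 48 h had the highest Cxcl1, 16.4 CPM, the highest mean log2 CPM of the ATF4 genes, 5.93, and the lowest of the growth factor genes, 4.00. Replicate 2 at 48 h had the highest Nr1h2, 58.7 CPM.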

How the results depend on the processing

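The fold changes were steadier than the number of genes called. For the 3 genes called in untreated slices of the first round, DESeq2 called 924, all first-round libraries in 1 fit 202, both rounds with 1 time effect 715, the sex letter as a term 864, and a minimum of 1.5-fold left 1. Alternatives added after the data were seen gave 130 with the hemoglobin libraries in the fit, 688 with the choroid plexus level as a term, 1830 with that and the sex letter, and 318 at an adjusted p under 0.10. With 1 library left out the count ran from 2 to 720. Deviations of libraries with the same title number correlated between −0.63 and 0.29, so the numbers gave no pairing, and the number as a replicate block left 0 genes by edgeR, with 2202 at an unadjusted p under 0.05, and Anln, Ereg and Lrrc8a did not pass. With the library code as a fixed block over all first-round libraries 18 genes were called, and with limma and the code as a random block 4. Anln, Ereg and Lrrc8a were called in both; the cause of the other counts was not tested.

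With hemoglobin, where 306 genes were called, DESeq2 called 959, a minimum of 10 counts in every library 541, batch 2 alone 46, the code as a fixed block 7, and leaving out 1 library 78 to 594. In the second round, where 1 was called, DESeq2 called 587, the stricter filter 5, no batch term 2, batch 2 alone 21, where the 48 h arm is 1 library assumed to vary like the other groups, and leaving out 1 library 0 to 163. For the difference between rounds, where 0 were called, DESeq2 called 73 and leaving out 1 library gave 0 to 15. The difference between hemoglobin and untreated slices had 0 calls by DESeq2, and 0 by edgeR or limma under each other alternative run. Of the named genes, Nqo1 turned to −0.081 and Gclm to −0.096 with the code as a block, and to −0.025 and −0.028 with both rounds in 1 fit. Slc40a1 ran from −0.13, without 48 h replicate 4, to 0.23 with other libraries left out, and up to 0.35 under the other alternatives. The medians of the S phase, mitosis, ATF4, myelin, astrocyte and glycolysis lists kept their sign under every alternative run. The median turned sign for growth factors in 5 alternatives, for chemokines and neuronal markers in 2 each, and for NRF2 targets and choroid plexus genes in 1 each. Genes near 1 CPM, such as Il6 and Areg, rest on few counts.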

Other observations

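Other gene groups showed differences that did not pass. Of 22 cholesterol synthesis genes 18 were negative in untreated slices of the first round, with a median log2 difference of −0.09, and 4 were lower at an unadjusted p under 0.05; in the second round 0 of them were positive, with a median of −0.31. Of 17 genes of the insulin and FOXO response 15 were positive, with a median of 0.13, 6 higher and 1 lower. In the second round 5 of the 17 were positive, with a median of −0.12. Of 24 immediate early genes 20 were positive, with a median of 0.14, but only 3 were higher and 2 lower at an unadjusted p under 0.05. In the second round 9 of the 24 were positive, with a median of −0.08. Of 21 genes of activated microglia 18 were positive, with a median of 0.18, and 0.73 in the second round. Of 25 proteasome subunits 21 were negative, with a median of −0.02, and in the second round 11 were negative, with a median of 0.02. Lists that mark regions of the brain had medians between −0.16 for cortex and hippocampus and 0.11 for striatum.

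With the library code as a fixed block over all first-round libraries, the 18 genes called at 48 h against 24 h included Acod1, which makes itaconate in activated macrophages, at −1.90, and Bmp2, at −0.79, beside Areg, Ereg and Il6, all lower. Wnt5b was higher, at 0.42. Acod1, Bmp2 and Wnt5b were named after their values were seen.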
